A study of Mus musculus with 3 samples.

Results

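The Gimap GTPases are the 8 mouse genes Gimap1, Gimap3, Gimap4, Gimap5, Gimap6, Gimap7, Gimap8 and Gimap9, taken by symbol from the 32285 genes of the count matrices, and all 8 had at least 1 UMI in each of the 3 libraries. GTPases of immunity-associated proteins bind GTP and sit on intracellular membranes, and their genes lie together in a tight cluster. They are best known from lymphocytes, where loss of single members in mice shortens the life of peripheral T cells, B cells or natural killer (NK) cells. Gimap5 is also known for the maintenance of blood stem cells in mice, so the family has been studied at both ends of the lymphoid lineage.

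The libraries came from mouse bone marrow of femora, tibiae, hips and spines and were made with a 10x Genomics droplet kit that reads the 3′ end of each transcript and counts unique molecular identifiers (UMIs). LSK cells were lineage-negative cells that carry Sca-1 and Kit on their surface, a gate that holds stem cells and early multipotent progenitors. LK cells were lineage-negative, Kit-positive cells, a gate dominated by myeloid and erythroid progenitors, and TBM was total bone marrow. The lineage antibodies were against CD5, CD8a, CD45R, CD11b, Ly-6G, Ly-6C and Ter119, all libraries came from a cell sorter, and no genotype, treatment, strain, age or sex of the mice is given in the labels used here, nor whether Sca-1-positive cells were kept out of the LK gate.

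After filtering, the LSK library held 1067 cells, the LK library 3461 cells and the TBM library 4217 cells, with a median of 9688 UMIs per LSK cell, 13683 per LK cell and 3347 per TBM cell. Each group had 1 library, so no comparison has a replicate check and no p-value is given: all intervals are 95% intervals that cover counting error only. Levels are UMIs of a gene per 1000000 UMIs of the cells named (CPM), and 3 UMIs, the limit that a count of 0 allows, correspond to 0.253 CPM in LSK, 0.0601 CPM in LK and 0.137 CPM in TBM. A level summed over a library cannot tell fewer positive cells from less RNA per cell, so shares of cells with a UMI are given beside it, and because these shares move with depth the main ones are also given after thinning every cell to 2000 UMIs, which left out 9 LK cells and 1288 TBM cells below that depth. The gates left their trace in the RNA: Kit had a UMI in 608 LSK cells, 1303 LK cells and 121 TBM cells, and Ly6a, which encodes Sca-1, in 554 LSK cells, 271 LK cells and 375 TBM cells. Cell barcodes shared between libraries numbered 6 for LSK and LK, 6 for LSK and TBM and 25 for LK and TBM. The numbers expected from library size were 5.01, 6.10 and 19.8.

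All 8 genes lay within 124 kb of chromosome 6 in GRCm38, at chr6:48647234-48770851. In order along the chromosome they were Gimap8, Gimap9, Gimap4, Gimap6, Gimap7, Gimap1, Gimap5 and Gimap3, with Gimap6 and Gimap3 on the minus strand and the other 6 on the plus strand. Each was annotated as protein-coding. Gimap6 (ENSMUSG00000047867) spanned chr6:48701582-48708225, Gimap1 (ENSMUSG00000090019) spanned chr6:48739054-48743795 and Gimap4 (ENSMUSG00000054435) spanned chr6:48684549-48692060. Exons of Gimap1, Gimap5 and Gimap7 overlapped the same-strand gene Gm28053, which is not a row of the count matrices, and Gimap1 overlapped the opposite-strand gene Gimap1os, which is. Of 91-base windows of the Gimap3 transcripts 2.01% occurred exactly in Gimap5, its close paralog, and 1.18% of the Gimap5 windows occurred in Gimap3, while no other pair of members shared such a window. Reads from those few stretches could not be assigned to Gimap3 or Gimap5.

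The promoters of 3 members are shown because their genes stand for the patterns described below: Gimap1 and Gimap6 were abundant in LSK cells and in lymphoid cells, and Gimap4 was abundant mainly in cells with T cell or NK cell genes. Each is the RefSeq window from 250 bases before to 50 bases after the gene start, read 5′ to 3′ on the gene's strand, and the table (GRCm38.p6) matched all 8 members. Capitals mark matches, on either strand, of TGTGGT, the letters of a RUNX motif, or GGAAGT, the letters of an ETS motif, on the reverse strand written as ACCACA and ACTTCC. No 2 matches overlapped.
Gimap1, chr6:48738797-48739096, plus strand: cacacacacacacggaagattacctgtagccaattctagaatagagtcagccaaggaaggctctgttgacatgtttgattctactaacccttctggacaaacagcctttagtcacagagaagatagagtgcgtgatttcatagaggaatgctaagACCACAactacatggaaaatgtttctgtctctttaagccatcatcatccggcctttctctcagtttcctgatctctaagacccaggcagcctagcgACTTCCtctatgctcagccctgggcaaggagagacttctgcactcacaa
Gimap6, chr6:48708195-48708494, minus strand: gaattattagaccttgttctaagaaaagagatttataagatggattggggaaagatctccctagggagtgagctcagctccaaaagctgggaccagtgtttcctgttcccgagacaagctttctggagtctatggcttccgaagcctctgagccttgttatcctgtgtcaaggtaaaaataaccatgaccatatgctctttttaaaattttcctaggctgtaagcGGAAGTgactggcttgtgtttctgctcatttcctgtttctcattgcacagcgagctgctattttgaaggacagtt
Gimap4, chr6:48684328-48684627, plus strand: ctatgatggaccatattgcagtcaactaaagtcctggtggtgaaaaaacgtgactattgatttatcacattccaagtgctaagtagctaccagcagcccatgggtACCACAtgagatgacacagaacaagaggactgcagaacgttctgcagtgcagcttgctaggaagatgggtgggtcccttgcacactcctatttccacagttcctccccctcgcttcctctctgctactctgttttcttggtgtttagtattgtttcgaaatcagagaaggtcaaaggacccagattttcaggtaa

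TGTGGT occurred in the windows of Gimap1, Gimap4 and Gimap7, against 16.8% of all 32851 promoters. GGAAGT occurred in those of Gimap1, Gimap5, Gimap6 and Gimap9, against 23.8% of all promoters. GATAAG, the letters of a GATA motif, was in none of the Gimap windows, against 7.44% of all promoters. Neither motif was shared by Gimap6 and Gimap4, and a match says only that these letters occur.

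Across the libraries the summed Gimap level was highest in LSK cells, at 437 CPM, against 71.7 CPM in LK cells and 237 CPM in TBM cells. At least 1 member had a UMI in 95.2% of LSK cells, 47.4% of LK cells and 34.6% of TBM cells, and after thinning to 2000 UMIs in 58.3% of LSK cells, 16.6% of LK cells and 20.3% of TBM cells. LK thus stood above TBM at full depth, where its cells carried the most UMIs, and below TBM at equal depth. The sum is made of unlike members, of which some were highest in LSK and others in TBM.

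**Figure D1:**
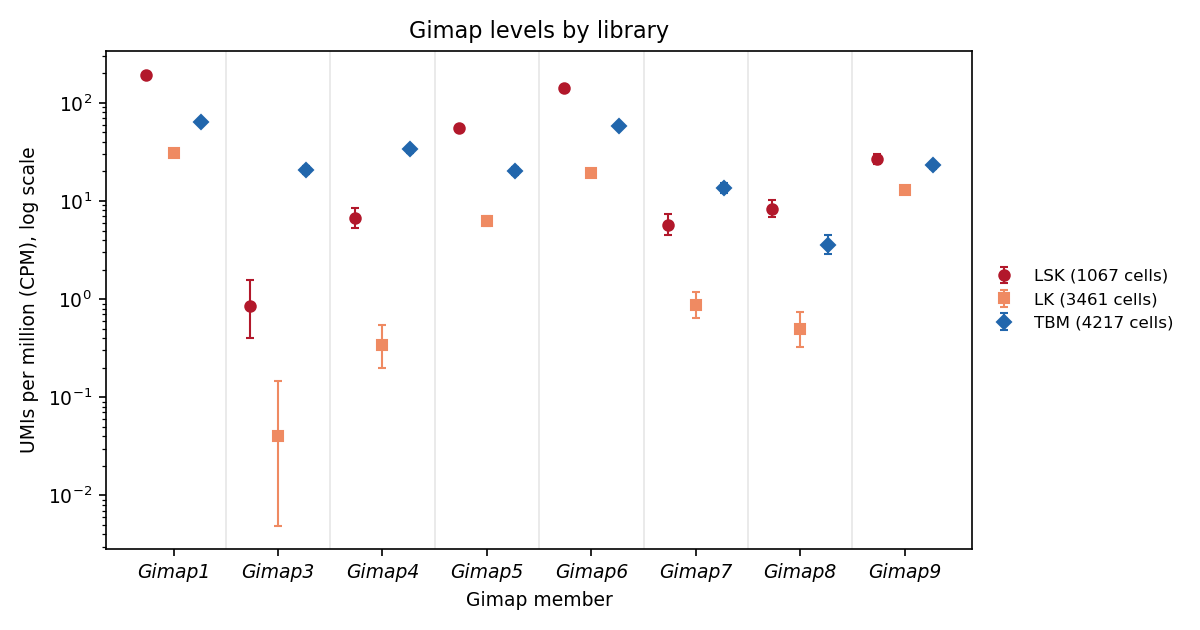
Level of each Gimap member in CPM (log axis) in the LSK, LK and TBM libraries, 1 library each; bars are 95% exact Poisson intervals, which cover counting error only. LSK stands above LK for each of the 8 members, while Gimap3, Gimap4 and Gimap7 are highest in TBM.

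Gimap1, which mature T and B cells of mice need to survive, was the most abundant member in LSK at 192 CPM, against 31.2 CPM in LK and 64.3 CPM in TBM. Gimap6, which binds the autophagy protein GABARAPL2, followed with 141 CPM in LSK, 19.4 CPM in LK and 58.3 CPM in TBM. Gimap5, whose loss in mice and rats depletes peripheral T cells, had 55.7 CPM in LSK, 6.29 CPM in LK and 20.4 CPM in TBM. These 3 members were therefore highest in LSK, next in TBM and lowest in LK, with intervals apart at each step. In LSK, Gimap1 was found in 84.5% of cells, Gimap6 in 70.6% and Gimap5 in 42.0%, and after thinning to 2000 UMIs in 33.7%, 26.0% and 13.2% of cells.

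Gimap9 had the smallest ratios among the libraries, with 26.9 CPM in LSK, 13.1 CPM in LK and 23.0 CPM in TBM. Gimap8, which carries several GTP-binding domains in tandem, was scarce, at 8.36 CPM in LSK, 0.501 CPM in LK and 3.60 CPM in TBM. Gimap7, whose human counterpart hydrolyses GTP as a dimer, had 5.74 CPM in LSK, 0.881 CPM in LK and 13.7 CPM in TBM. Gimap8 was thus highest in LSK and Gimap7 in TBM.

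Gimap4, which in mice quickens the death of T cells, had 6.76 CPM in LSK, 0.340 CPM in LK and 33.6 CPM in TBM. Gimap3, which acts in mice on the segregation of mitochondrial DNA in blood tissues, was the scarcest of the family in the sorted progenitors, with 10 UMIs in LSK and 2 UMIs in LK, against 453 UMIs in TBM. Its level was 0.845 CPM in LSK and 0.0401 CPM in LK, the second under the limit of 3 UMIs, against 20.6 CPM in TBM. Most UMIs of both genes were therefore in the TBM library.

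Set against LK, LSK had a summed Gimap level 2.61 higher on the log2 scale (2.55 to 2.67), and 7 of the 7 members that had 20 UMIs or more in the libraries together were at least 2-fold higher, where 19.9% of all genes were. None of the 7 was at least 2-fold lower, where 3.73% of all genes were. Log2 differences, LSK over LK, ran from 1.04 for Gimap9 (0.84 to 1.23) through 2.62 for Gimap1 (2.53 to 2.71) to 4.06 for Gimap8 (3.42 to 4.76) and 4.31 for Gimap4 (3.54 to 5.16). The median difference of all genes was 0.34, and relative to it Gimap9 was 0.70 higher in LSK and the other 6 remained more than 2-fold higher. Gimap3, with its 12 UMIs, was 4.40 higher with an interval of 2.17 to 7.63.

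Set against TBM, LSK was higher in some members and lower in others. Gimap1 was 1.58 higher on the log2 scale (1.48 to 1.67), Gimap5 1.45 higher (1.28 to 1.63), Gimap6 1.28 higher (1.17 to 1.38) and Gimap8 1.22 higher (0.78 to 1.66). These 4 of 8 members were at least 2-fold higher, where 36.9% of all genes were, and the median of all genes lay 0.69 higher in LSK. Relative to that median, the same 4 differences were 0.89 for Gimap1, 0.76 for Gimap5, 0.59 for Gimap6 and 0.53 for Gimap8, all under 2-fold. Gimap9 was 0.22 higher as counted and 0.46 lower relative to the median. Gimap3 was 4.61 lower in LSK (3.72 to 5.68), Gimap4 2.31 lower (1.98 to 2.66) and Gimap7 1.25 lower (0.87 to 1.65), 3 members at least 2-fold lower where 13.1% of all genes were. For the summed level, LSK was 0.88 above TBM (0.83 to 0.94), but 0.19 relative to the median and 0.054 when every cell counted alike. LK lay below TBM in all 8 members, 7 of them by at least 2-fold, where 16.8% of all genes were, and 0 of 8 were at least 2-fold higher, where 27.3% were.

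Few lymphoid cells were in the sorted progenitors. Cd3e, a T cell receptor component, had 0 UMIs in LSK, which allows up to 0.253 CPM, and 1 UMI in LK, against 272 UMIs in TBM. LSK cells with a UMI of Cd3d, Cd3e, Cd3g, Klrd1 or Cd79a, or with at least 10 UMIs of the antibody chain gene Jchain, numbered 14 and held 76 of the 5176 Gimap UMIs of that library, among them 5 of the 80 Gimap4 UMIs. In LK, 28 such cells held 28 of 3580 Gimap UMIs.

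Within LSK, cells were divided by Procr, which encodes the endothelial protein C receptor and marks stem cells, and by Flt3, a cytokine receptor of multipotent and lymphoid-primed progenitors. There were 237 cells with Procr only (median 7728 UMIs), 192 with both (10112 UMIs), 319 with neither (9753 UMIs) and 319 with Flt3 only (11217 UMIs). All 8 genes of a fixed stem cell list had UMIs in Procr-only cells, at a summed 595 CPM, against 199 CPM in Flt3-only cells, and all 6 of a lymphoid-primed list had UMIs in Flt3-only cells, at 639 CPM, while 5 of the 6 had UMIs in Procr-only cells, at 422 CPM.

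The summed Gimap level was 667 CPM in Procr-only cells, 460 CPM in cells with both genes, 377 CPM in cells with neither and 351 CPM in Flt3-only cells. Procr-only cells stood 0.92 above Flt3-only cells on the log2 scale (0.82 to 1.03), and cells with both lay between them. Among the 7 members with at least 20 UMIs over Procr-only and Flt3-only cells, 3 were at least 2-fold higher in Procr-only cells, where 5.74% of all genes were, and 1 was at least 2-fold lower, where 2.88% were.

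**Figure D2:**
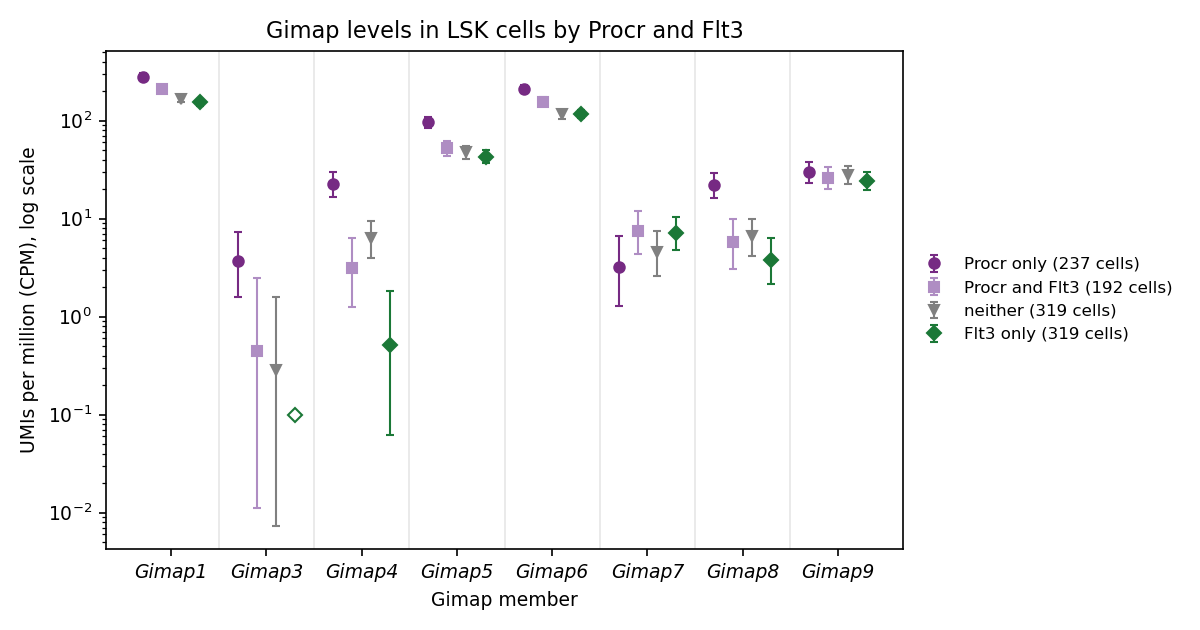
Level of each Gimap member in CPM (log axis) in LSK cells divided by Procr and Flt3; bars are 95% exact Poisson intervals for counting error only, and the open marker stands for 0 UMIs. Gimap4 and Gimap8 are far higher in Procr-only cells than in Flt3-only cells, Gimap1, Gimap5 and Gimap6 are moderately higher, and the intervals of Gimap7 and Gimap9 overlap.

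Gimap4 separated the classes most sharply. It had 49 UMIs in Procr-only cells (22.6 CPM), 7 in cells with both (3.10 CPM), 22 in cells with neither (6.31 CPM) and 2 in Flt3-only cells (0.510 CPM). The difference between Procr-only and Flt3-only cells was 5.47 on the log2 scale, with an interval of 3.54 to 8.56 that is wide because 1 side rests on 2 UMIs. Gimap4 was found in 13.1% of Procr-only cells and 0.627% of Flt3-only cells, although Flt3-only cells were the deeper. After thinning it was found in 3.80% of Procr-only cells and in 0 of 319 Flt3-only cells, with an interval up to 1.15%. Read the other way, 67.9% of the 56 LSK cells with Gimap4 carried Procr and 16.1% carried Flt3, while 38.7% of the remaining LSK cells carried Procr and 49.7% carried Flt3, at a median depth of 8153 UMIs with Gimap4 and 9893 without.

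Gimap8 had 48 UMIs in Procr-only cells (22.1 CPM), 13 in cells with both (5.76 CPM), 23 in cells with neither (6.60 CPM) and 15 in Flt3-only cells (3.82 CPM). Procr-only cells were 2.53 above Flt3-only cells (1.67 to 3.48), so Gimap4 and Gimap8, scarce in LSK as a whole, reached about equal levels in Procr-only cells. Gimap3 had 8 of its 10 LSK UMIs in Procr-only cells and 0 in Flt3-only cells. That is 4.82-fold higher if 3 UMIs are allowed in Flt3-only cells, with the counting error of the 8 UMIs left out.

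The abundant members differed less. Gimap5 had 95.9 CPM in Procr-only cells, 52.3 CPM with both, 47.3 CPM with neither and 42.8 CPM in Flt3-only cells, a log2 difference of 1.16 between Procr-only and Flt3-only cells (0.86 to 1.46). Gimap1 had 280 CPM in Procr-only cells, 208 CPM with both, 167 CPM with neither and 155 CPM in Flt3-only cells, a difference of 0.86 (0.69 to 1.02). Gimap6 had 209 CPM in Procr-only cells, 156 CPM with both, 116 CPM with neither and 118 CPM in Flt3-only cells, a difference of 0.82 (0.63 to 1.01). Procr-only cells were highest in all 3 genes, and cells with neither gene and Flt3-only cells did not differ beyond counting error.

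Gimap9 and Gimap7 stood outside this pattern. Gimap9 lay between 24.5 and 30.0 CPM in all 4 classes, and its difference between Procr-only and Flt3-only cells, 0.29, had an interval of -0.18 to 0.76. Gimap7 had 7 UMIs in Procr-only cells, 17 in cells with both, 16 in cells with neither and 28 in Flt3-only cells, and its difference was -1.15 with an interval of -2.58 to 0.08 that includes 0. Of the 62 LSK cells with Gimap7, 66.1% carried Flt3, against 46.8% of the other LSK cells, but cells with Gimap7 were also deeper, at a median of 12648 against 9576 UMIs. Among Flt3-only cells, those with a UMI of Dntt, the DNA polymerase of antigen receptor joining, had 19 Gimap7 UMIs in 100 cells and those without had 9 in 219, or 15.1 CPM with Dntt against 3.38 CPM without, a difference of 2.16 (0.95 to 3.49).

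LSK cells that carried Mki67 or Top2a, genes of dividing cells, had a lower Gimap level, at 326 CPM in 439 cells against 566 CPM in the 628 cells without them, a log2 difference of -0.80 (-0.88 to -0.72). Gimap4 at -1.80 (-2.61 to -1.05) and Gimap8 at -1.55 (-2.24 to -0.90) were at least 2-fold lower, 2 of 7 members where 5.13% of all genes were. Gimap9 at -0.07 and Gimap7 at 0.22 had intervals that include 0. This split was chosen after the data were seen, and the cells with Mki67 or Top2a were also the deeper, at a median of 14390 UMIs against 8268. The 439 cells held 2071 Gimap UMIs and the 628 cells 3105, so the lower level is one relative to total UMIs. At least 1 member had a UMI in 93.8% of cells with Mki67 or Top2a and 96.2% of those without. After thinning to 2000 UMIs these shares were 48.7% and 65.0%. Of the Procr-only cells 64 of 237 carried Mki67 or Top2a, and of the Flt3-only cells 159 of 319. When they were left out, Procr-only cells stood 0.82 above Flt3-only cells (0.68 to 0.96) in the summed level and Gimap8 2.94 above. Gimap4 then had 42 UMIs in Procr-only cells and 0 in Flt3-only cells. That is 15.7-fold higher if 3 UMIs are allowed in Flt3-only cells, with the counting error of the 42 UMIs left out. Among the cells with Mki67 or Top2a the summed level was 446 CPM in Procr-only and 287 CPM in Flt3-only cells, a difference of 0.63 (0.45 to 0.82). There, 0 of the 5 members with at least 20 UMIs were at least 2-fold higher in Procr-only cells, where 2.89% of all genes were, and 1, Gimap7 with 2 UMIs in Procr-only and 18 in Flt3-only cells, was lower, where 3.05% of all genes were. Gimap4 had 7 UMIs in Procr-only and 2 in Flt3-only cells with Mki67 or Top2a.

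The same classes were taken from LK. There, 105 Procr-only cells had a summed Gimap level of 304 CPM and 776 Flt3-only cells had 82.3 CPM, a log2 difference of 1.89 (1.71 to 2.06). LSK cells stood above LK cells of the same class, by 1.13 in Procr-only cells (0.97 to 1.30), where 4 of 6 members were at least 2-fold higher against 11.5% of all genes, and by 2.10 in Flt3-only cells (1.98 to 2.21), where 4 of 5 members were, against 13.2% of all genes. Of the LK cells, 163 with Procr had 276 CPM, 519 with the erythroid factor Klf1 but no Procr had 65.1 CPM, 1564 with at least 0.5% of their UMIs from Mpo, a gene of granulocyte progenitors, had 20.3 CPM, and the remaining 1215 had 175 CPM. A band of 207 LK cells lay between 0.4% and 0.6% of UMIs from Mpo, near that limit. In Mpo-rich cells Gimap3, Gimap4 and Gimap8 had 0 UMIs, and the most abundant member was Gimap9 at 8.10 CPM, followed by Gimap1 at 7.46 CPM and Gimap6 at 3.50 CPM. The lead of Gimap9 there was within counting error, but in every LSK class Gimap1 and Gimap6 were several times more abundant than Gimap9.

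In TBM, cells were divided by Cd3e, by Klrd1, which encodes the CD94 receptor of NK cells and some T cells, and by Cd79a and Vpreb3, genes of the B cell receptor and of the pre-B cell stage. Cells with Cd3e and neither B cell gene numbered 97, cells with Klrd1 but neither Cd3e nor a B cell gene 74, and cells with Vpreb3 or Cd79a but neither Cd3e nor Klrd1 1848, of which 1276 had Vpreb3 and 572 had Cd79a without Vpreb3. A further 35 cells had both kinds of marker. Of the cells with none of the 4 genes, 1313 had at least 5% of their UMIs from S100a8 and S100a9, genes of neutrophils, 302 had at least 20% from globins 283 had the monocyte receptor gene Csf1r, and 265 had none of these features. All 8 genes of a T cell list had UMIs in Cd3e cells, at a summed 4659 CPM, against 17.5 CPM for 6 of the 8 in B-marked cells.

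The summed Gimap level was 2027 CPM in Cd3e cells, 1012 CPM in Klrd1-only cells and 441 CPM in B-marked cells. In the 265 cells with none of these features it was 99.9 CPM, in S100a8/S100a9-rich cells 17.4 CPM, in Csf1r cells 15.5 CPM and in globin-rich cells 13.7 CPM. Cells with at least 1 member made up 93.8% of Cd3e cells, 66.2% of Klrd1-only cells, 57.7% of B-marked cells, 32.5% of the 265 remaining cells and 7.08% of S100a8/S100a9-rich cells. Median depths were 2865 UMIs in Cd3e cells, 4904 in Klrd1-only cells, 2183 in B-marked cells, 6907 in the remaining cells and 3141 in S100a8/S100a9-rich cells. After thinning to 2000 UMIs the share was 92.1% in Cd3e cells, 53.5% in Klrd1-only cells, 37.6% in B-marked cells and 16.5% in the remaining cells. It was 2.67% in globin-rich cells, 2.59% in S100a8/S100a9-rich cells and 1.48% in Csf1r cells. Thinning left out 786 of the 1848 B-marked cells. Without S100a8/S100a9-rich and globin-rich cells the thinned share was 53.2% in B-marked, 94.4% in Cd3e and 58.7% in Klrd1-only cells. Each lymphoid class stood above the globin-rich, S100a8/S100a9-rich and Csf1r cells, which are set beside it as cell types not known for the family, although 54 of the 104 Gimap UMIs of S100a8/S100a9-rich cells came from Gimap9.

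**Figure D3:**
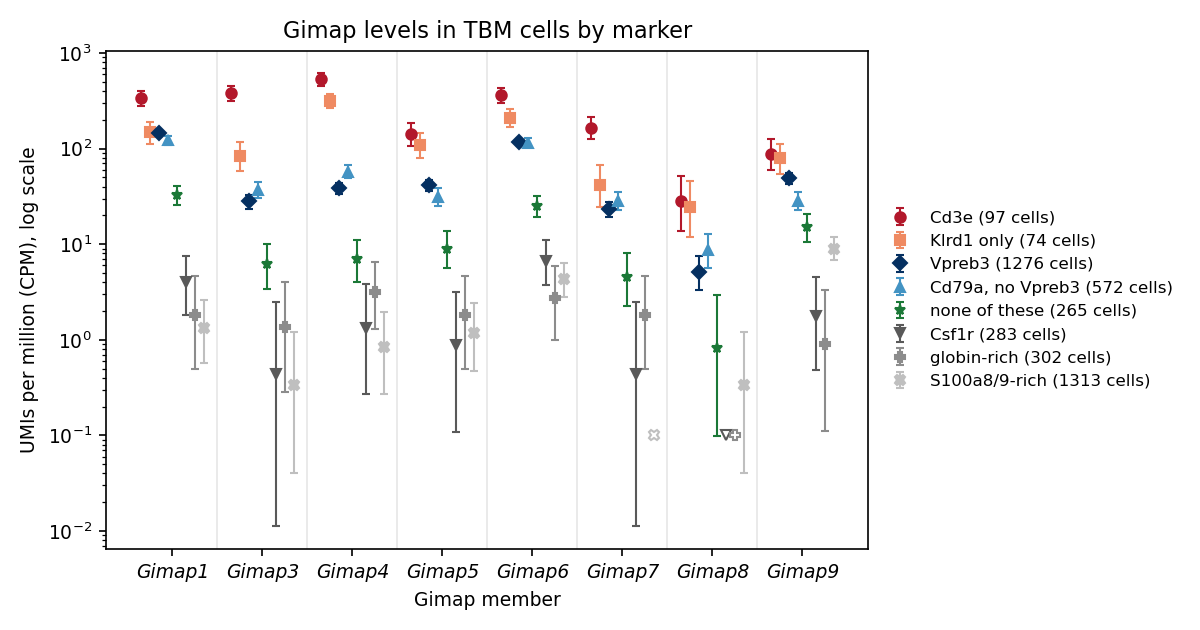
Level of each Gimap member in CPM (log axis) in TBM cells divided by marker genes; bars are 95% exact Poisson intervals for counting error only, and open markers stand for 0 UMIs. Cd3e cells have the highest value of each member, within counting error of Klrd1-only cells for Gimap5, Gimap8 and Gimap9. The Vpreb3 and Cd79a classes lie below Cd3e cells, Csf1r, globin-rich and S100a8/S100a9-rich cells lie under 10 CPM, and cells with none of these markers reach 32.3 CPM for Gimap1.

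All 8 members were at least 2-fold higher in Cd3e cells than in B-marked cells, where 10.9% of all genes were (9.2% were at least 2-fold lower), and the summed difference was 2.20 on the log2 scale (2.08 to 2.32). Gimap4 led in Cd3e cells with 531 CPM against 45.2 CPM in B-marked cells, a log2 difference of 3.55 (3.29 to 3.81). Gimap3 had 378 CPM in Cd3e cells and 31.2 CPM in B-marked cells, a difference of 3.60 (3.28 to 3.91). Gimap7 had 165 CPM in Cd3e cells and 25.2 CPM in B-marked cells, a difference of 2.71 (2.26 to 3.14). These are the 3 members that were lower in LSK than in TBM.

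The other members differed less between the same cells. Gimap6 had 361 CPM in Cd3e cells against 117 CPM in B-marked cells, Gimap1 335 against 137 CPM, Gimap5 142 against 37.7 CPM, Gimap9 88.0 against 41.6 CPM and Gimap8 28.4 against 6.39 CPM. Their log2 differences ran from 1.08 for Gimap9 (0.50 to 1.62) to 2.15 for Gimap8 (1.01 to 3.15), and Gimap8 rested on 10 UMIs in Cd3e cells. Other RNA moved with the B-marked class: 2 of the 97 Cd3e cells were S100a8/S100a9-rich and 3 globin-rich, against 256 and 119 of the 1848 B-marked cells. Without such cells the summed difference was 1.77 (1.65 to 1.89), Gimap1 lay 0.84 higher and Gimap9 0.65 higher, and 6 of 8 members were at least 2-fold higher, where 8.38% of all genes were. With every cell counted alike the summed difference was 1.47.

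Cd3e cells with Klrd1, 33 in number, had a summed 2743 CPM, and the 64 without Klrd1 had 1661 CPM, a log2 difference of 0.72 (0.51 to 0.94). Gimap4 had 797 CPM in Cd3e cells with Klrd1 and 395 CPM in those without. A single cell held 11.9% of the Gimap UMIs of the Cd3e cells without Klrd1.

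Klrd1-only cells were a mixture. Their NK cell list summed to 3432 CPM and their dendritic list to 1931 CPM. Their B cell list summed to 5208 CPM, with Ms4a1, Pax5 and Fcmr at 0. By definition these cells had no UMI of Cd79a or Vpreb3, and whether B cells were among them was not tested. Compared with B-marked cells, 4 of 8 members were at least 2-fold higher in Klrd1-only cells, where 11.4% of all genes were: Gimap4 by 2.81 on the log2 scale (2.50 to 3.10), Gimap8 by 1.95 (0.81 to 2.94), Gimap5 by 1.53 (1.04 to 1.99) and Gimap3 by 1.43 (0.87 to 1.95). Gimap1 differed by 0.11 (-0.29 to 0.48). Cd3e cells stood 1.0 above Klrd1-only cells in the summed level (0.82 to 1.18), with 3 of 8 members at least 2-fold higher, where 5.67% of all genes were.

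After the data were seen, the Klrd1-only cells were divided by Ncr1, Klrb1c and Klre1, receptor genes of NK cells. The 31 cells with at least 1 of the 3 had a summed Gimap level of 3205 CPM, and the 43 cells without had 161 CPM, a log2 difference of 4.31 (3.87 to 4.79). In the 31 cells Gimap4 had 1121 CPM and was found in 30 of them, Gimap6 had 583 CPM, Gimap1 380 CPM, Gimap5 371 CPM, Gimap3 300 CPM, Gimap9 212 CPM, Gimap7 150 CPM and Gimap8 88.3 CPM. In the 43 cells Gimap3, Gimap7 and Gimap8 had 0 UMIs and Gimap4 had 1 UMI. The B cell list summed to 653 CPM in the 31 cells, with Ms4a1, Cd22, Pax5 and Fcmr at 0. In the 43 cells it summed to 6976 CPM, although neither part had a UMI of Cd79a or Vpreb3, by definition of the class. The NK cell list summed to 11840 CPM in the 31 cells and 168 CPM in the 43. The split itself used NK cell genes, so this last contrast is not an independent check of it.

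Set against those 31 cells, Cd3e cells were lower in the summed level, with a log2 difference of -0.66 (-0.85 to -0.48). In 4 of 8 members Cd3e cells were at least 2-fold lower, where 9.31% of all genes were: Gimap8 at -1.64 (-3.06 to -0.22), with 10 UMIs on each side, Gimap5 at -1.39 (-2.01 to -0.76), Gimap9 at -1.27 (-2.08 to -0.44) and Gimap4 at -1.08 (-1.41 to -0.74). None was at least 2-fold higher, where 9.48% of all genes were. Gimap6 was at -0.69 (-1.13 to -0.24), and Gimap1 at -0.18 had an interval of -0.70 to 0.36. Gimap3 at 0.33 (-0.22 to 0.92) and Gimap7 at 0.13 (-0.67 to 1.01) had intervals that include 0. The Klrd1-only cells with NK cell genes stood 2.86 above B-marked cells (2.70 to 3.02), compared with 1.20 (1.05 to 1.34) for Klrd1-only cells as a whole.

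Among B-marked cells, those with Vpreb3 had a summed Gimap level of 449 CPM and those with Cd79a without Vpreb3 had 429 CPM, a log2 difference of 0.07 (-0.04 to 0.17). None of the 8 members was at least 2-fold higher, where 12.0% of all genes were, or 2-fold lower, where 4.13% were. Of the 1276 Vpreb3 cells 114 were S100a8/S100a9-rich and 57 globin-rich, and of the 572 Cd79a cells without Vpreb3 142 were S100a8/S100a9-rich and 62 globin-rich. When these were left out, the direction turned: Vpreb3 cells had 594 CPM and Cd79a cells without Vpreb3 had 807 CPM, a difference of -0.44 (-0.55 to -0.34). Gimap8 then stood at -1.24 (-2.10 to -0.37), Gimap4 at -1.13 (-1.43 to -0.81), Gimap3 at -0.96 (-1.33 to -0.58) and Gimap7 at -0.82 (-1.24 to -0.40), while Gimap9 was at 0.32 (-0.05 to 0.72).

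Vpreb3 cells were further divided by Vpreb1 and Igll1, which encode the surrogate light chain of the pre-B cell receptor. The 135 cells with either gene had a summed 337 CPM and the 1141 cells without had 479 CPM, a log2 difference of -0.51 (-0.67 to -0.34). In 4 of 8 members the cells with a surrogate light chain gene were at least 2-fold lower, where 11.7% of all genes were: Gimap7 by -2.61 (-4.26 to -1.35), Gimap3 by -2.38 (-3.72 to -1.30), Gimap4 by -1.41 (-2.19 to -0.70) and Gimap5 by -1.28 (-2.0 to -0.62). Gimap1 did not show this, with 146 CPM in cells with either gene and 146 CPM in those without. The cells with a surrogate light chain gene were deeper, at a median of 5641 UMIs against 2052. At least 1 member had a UMI in 72.6% of them and in 57.0% of the cells without. After thinning to 2000 UMIs these shares were 40.5% and 42.0%. Of the 135 cells 6 were S100a8/S100a9-rich and 1 globin-rich, and of the 1141 cells 108 and 56. The comparison without such cells was not tested.

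Cells with none of the 4 lymphoid genes were not alike in the family. In the 265 cells that were also neither S100a8/S100a9-rich, globin-rich nor Csf1r-positive, Gimap1 had 79 UMIs (32.3 CPM), Gimap6 61 UMIs (25 CPM) and Gimap9 37 UMIs (15.1 CPM), and the other 5 members lay between 0.819 CPM for Gimap8 and 9.0 CPM for Gimap5. Gimap1 was found in 19.2% of these cells, or 9.57% after thinning. All 8 genes of the B cell list had UMIs in them, at a summed 1310 CPM, against 8712 CPM in B-marked cells, and all 8 of the NK cell list at 535 CPM, against 101 CPM in B-marked cells. The part of such cells in these Gimap levels was not tested.

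In S100a8/S100a9-rich cells Gimap9 was the most abundant member. It had 54 UMIs there, or 9.01 CPM, against 2 UMIs and 0.910 CPM in globin-rich cells, a log2 difference of 3.31 (1.38 to 6.39). With the 2 UMIs set to 3 the difference was 2.72, and the median of all genes lay 0.67 higher in S100a8/S100a9-rich cells. Gimap1 had 8 UMIs and 1.33 CPM in S100a8/S100a9-rich cells. In B-marked cells Gimap1, at 137 CPM, was above Gimap9, at 41.6 CPM. Gimap9 was found in 3.81% of S100a8/S100a9-rich cells, or 1.80% after thinning.

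Set beside the Cd3e cells of TBM, the Procr-only cells of LSK held an unlike mixture of members. The log2 difference, Procr-only LSK cells over Cd3e cells, was -0.26 for Gimap1 (-0.54 to 0.04), -0.36 for Gimap8 (-1.36 to 0.79), -0.57 for Gimap5 (-1.02 to -0.09) and -0.79 for Gimap6 (-1.08 to -0.49). It was -1.55 for Gimap9 (-2.19 to -0.89), -4.55 for Gimap4 (-5.04 to -4.09), -5.67 for Gimap7 (-7.05 to -4.54) and -6.68 for Gimap3 (-7.92 to -5.66). Gimap1, Gimap5, Gimap6 and Gimap8 were thus within 2-fold of the level in Cd3e cells, and the other 4 of 8 members were at least 2-fold lower, where 6.74% of all genes were. The median of all genes lay 0.40 higher in the Procr-only cells, and relative to it Gimap6 was at -1.19.

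**Figure D4:**
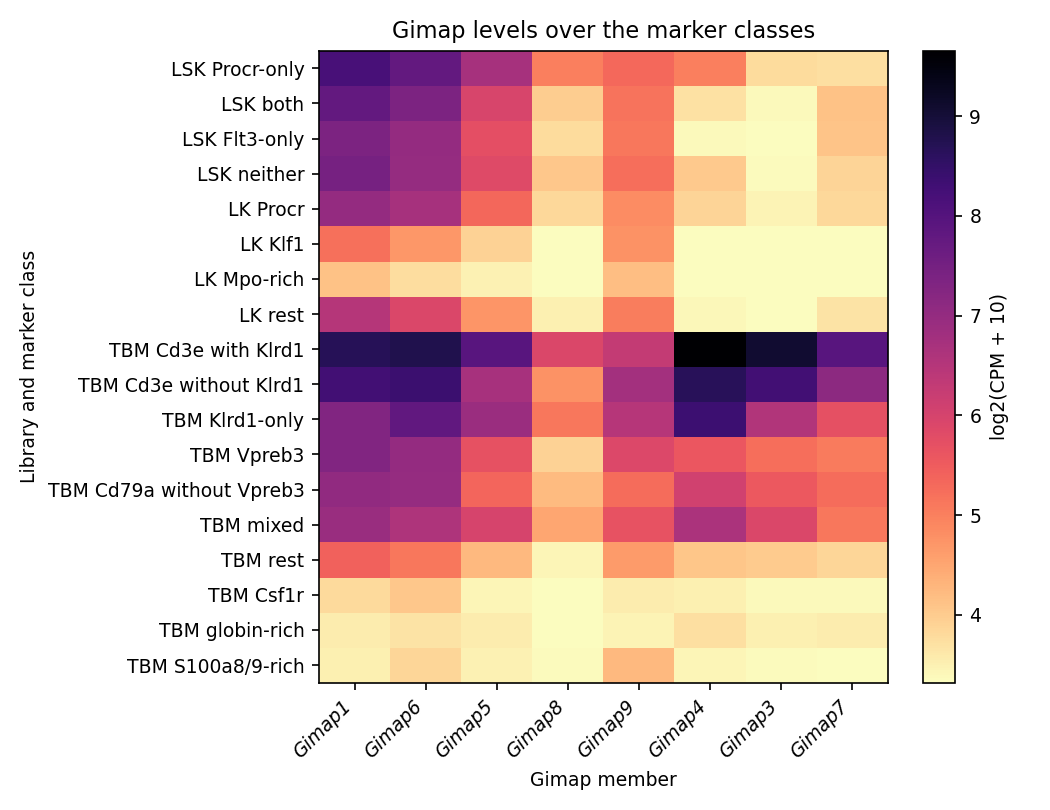
Level of each Gimap member, as log2(CPM + 10), in the 18 marker classes of the 3 libraries, with darker colour for higher levels. Gimap1, Gimap6 and Gimap5 are dark in the LSK classes and in the lymphoid TBM classes, whereas Gimap4, Gimap3 and Gimap7 are dark in the Cd3e classes of TBM and pale in LSK.

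Over the 18 classes of all libraries, levels of members fell into similar groups. Pearson's r of log2(CPM + 10) was 0.98 between Gimap1 and Gimap6, 0.97 between Gimap5 and Gimap6 and 0.94 between Gimap1 and Gimap5, and it was 0.98 between Gimap3 and Gimap4, 0.98 between Gimap3 and Gimap7 and 0.95 between Gimap4 and Gimap7. Between the groups it was lower, from 0.55 for Gimap1 and Gimap3 and 0.61 for Gimap1 and Gimap4 up to 0.78 for Gimap5 and Gimap7. Gimap8 and Gimap9 belonged to neither group, with values that began at the top of this range between the groups. Gimap8 ran from 0.78 with Gimap1 to 0.93 with Gimap5, and had 0.89 with Gimap4. Gimap9 ran from 0.78 with Gimap3 to 0.89 with Gimap6, and had 0.82 with Gimap4. Classes of 1 library share that library and its depth, so these values are descriptions. Neighbours on the chromosome were not always alike, since Gimap5 and Gimap3 lie side by side with an r of 0.71.

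The genes whose levels were most like each member over the same classes, among 10396 candidates, were also split. For Gimap1 they were H2-Q4 (r = 0.93), Il21r, Il2rg, Rhof and Galnt12, and for Gimap6 Rhof (r = 0.95), Galnt12, Il2rg, Abhd6 and Il21r. For Gimap5 they were Gimap1os (r = 0.95), Galnt12, Rhof, Abhd6 and Tecpr1, and for Gimap8 Gimap1os (r = 0.94), Dennd2d, Tecpr1, Ctsw and Traf1. Gimap3 was closest to Cd2 (r = 0.97), Rasgrp1, Dgka, Lef1 and Ccr7, Gimap4 to Traf1 (r = 0.96), Cd2, Dgka, Rras2 and 1700012D14Rik, and Gimap7 to Rasgrp1 (r = 0.96), Cd2, Ccr7, Dgka and Rras2. Gimap9 had its own set, Prkca (r = 0.93), Sept1, Zfp36l1, Papolg and Ppp3cc. With a pseudocount of 1 in place of 10, between 1 and 4 of each 5 genes were named again.

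At least 3 of the 8 members had UMIs in 48.3% of LSK cells, against 5.75% of LK cells and 13.5% of TBM cells. After thinning to 2000 UMIs the shares were 4.12% in LSK, 0.55% in LK and 6.69% in TBM, so LSK was above TBM only at full depth. Within LSK the share was 61.6% in Procr-only cells and 41.4% in Flt3-only cells, in spite of the lower depth of Procr-only cells. In TBM it was 74.2% in Cd3e cells, 44.6% in Klrd1-only cells, 19.3% in Vpreb3 cells, 31.3% in Cd79a cells without Vpreb3 and 0% in S100a8/S100a9-rich cells. After thinning it was 11.0% in Procr-only LSK cells, 1.88% in Flt3-only LSK cells, 50% in Cd3e cells and 33.8% in Klrd1-only cells. In Vpreb3 cells it was then 10.6% and in Cd79a cells without Vpreb3 12.6%. When S100a8/S100a9-rich and globin-rich cells were also left out, these shares were 13.5% in Vpreb3 cells and 26.7% in Cd79a cells without Vpreb3. That of Cd3e cells was then 52.8%. At equal depth cells with at least 3 members were thus far more frequent among Cd3e cells than in either LSK class.

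**Figure D5:**
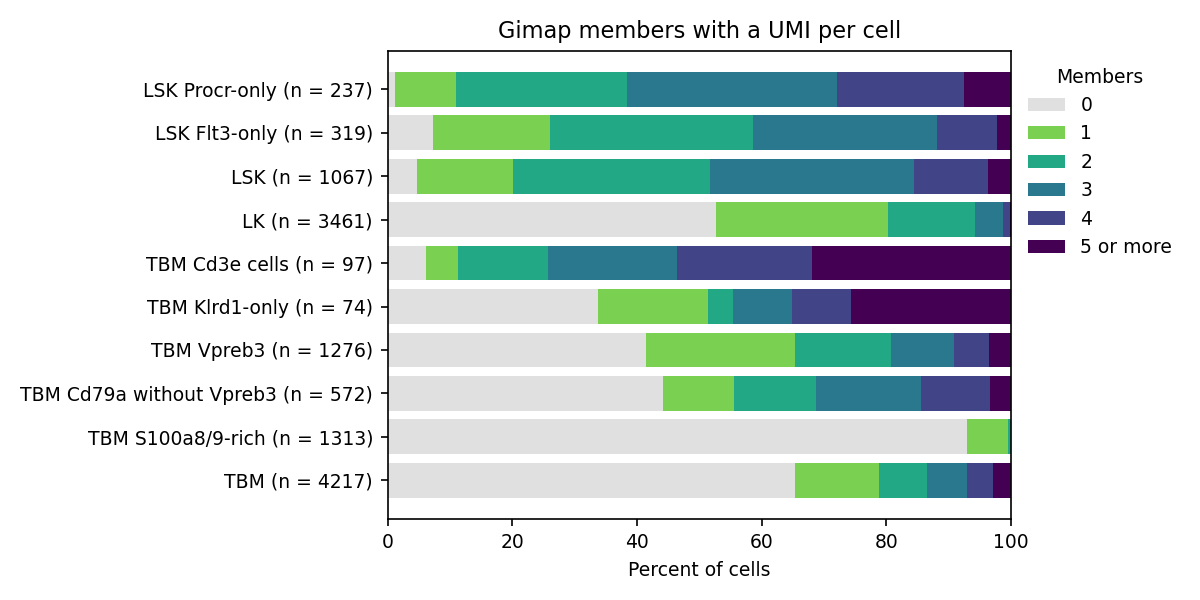
Percent of cells with UMIs of 0, 1, 2, 3, 4 or at least 5 of the 8 Gimap members, by library and marker class, at each cell's own depth. Cd3e cells of TBM have the largest share with at least 5 members, LSK cells mostly have 2 or 3, and S100a8/S100a9-rich cells mostly have none.

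Co-detection, the share of cells with a second member among cells with and without a first, was examined for each ordered pair with enough cells. In B-marked cells 52.9% of cells with Gimap1 also had Gimap6, against 20.3% of cells without Gimap1, and the intervals of 48 of 56 pairs stood apart, or 43 of 56 after thinning to 2000 UMIs. Klrd1-only cells had 35 of 56 pairs apart, and 19 of 42 after thinning. Both classes are mixtures of unlike cells. Of the 31 Klrd1-only cells with Ncr1, Klrb1c or Klre1, 96.8% had at least 3 members, against 6.98% of the 43 without. In B-marked cells 3468 of 3525 Gimap UMIs lay in the 1473 of 1848 cells that were neither S100a8/S100a9-rich nor globin-rich. Co-detection inside these parts was not tested. In Cd3e cells only 2 of 49 pairs stood apart, those of Gimap4 with Gimap6: 69.2% of cells with Gimap4 had Gimap6, against 34.4% of cells without it, and the same 2 pairs stood apart after thinning. In LSK 15 of 56 pairs stood apart, such as Gimap6 in 73.5% of cells with Gimap1 against 54.5% of cells without, but 3 of 49 after thinning. In LK 32 of 49 pairs stood apart, and 11 of 28 after thinning. In each pair that stood apart the share was the higher in cells with the first member. Over all pairs it was the higher in 42 of 56 in LSK and 26 of 49 after thinning, in 43 of 49 in LK and 18 of 28 after thinning, and in 46 of 49 in Cd3e cells and 41 of 49 after thinning. In TBM as a whole, which mixes all classes described above, 56 of 56 pairs stood apart.

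Other genes of related pathways were read from fixed lists. Interferon-inducible GTPases are separate from the Gimap family. Of these, 8 of the 9 measured reached a 2-fold higher level in LSK relative to LK, where 19.9% of all genes did. The 9 had a median log2 difference of 1.64 against 0.34 for all genes. Iigp1 had 25.8 CPM in LSK and 1.28 CPM in LK, and Gbp2 40.4 CPM in LSK and 9.23 CPM in LK, while Gbp3 had 30.3 CPM in LSK and 39.4 CPM in LK. In LSK, 5 of 9 were at least 2-fold higher in Procr-only than in Flt3-only cells, where 5.74% of all genes were, among them Iigp1 with 62.7 CPM in Procr-only and 12.5 CPM in Flt3-only cells. In Cd3e cells 4 of the 7 measured were at least 2-fold higher than in B-marked cells, where 10.9% of all genes were. Of 10 genes of ATG8 proteins and autophagy, to which Gimap6 is linked, 0 differed by 2-fold or more between LSK and LK, where 19.9% of all genes were higher and 3.73% lower, and Gabarapl2 had 147 CPM in LSK and 99.3 CPM in LK.

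Of 10 BCL2 family genes, regulators of cell death, 1 was at least 2-fold higher and 1 lower in LSK than in LK, where 19.9% of all genes were higher and 3.73% lower: Bcl2l1 with 22.5 CPM in LSK and 8.65 CPM in LK, and Pmaip1 with 2.28 CPM in LSK and 6.95 CPM in LK. In Cd3e cells 4 of 10 were at least 2-fold higher than in B-marked cells and 1 was lower, where 10.9% of all genes were higher and 9.2% lower, and Bcl2 had 514 CPM in Cd3e cells against 43.0 CPM in B-marked cells. Of genes of lymphocyte circulation and quiescence, 6 of 10 were at least 2-fold higher and 1 lower in Cd3e cells than in B-marked cells, against the same 10.9% and 9.2% of all genes. Tcf7, a T cell transcription factor, had 210 CPM in Cd3e cells and 0.626 CPM in B-marked cells, and Bach2 had 19.9 CPM in Cd3e cells and 63.7 CPM in B-marked cells. In LSK 4 of the 8 measured were at least 2-fold higher and 1 lower than in LK, against 19.9% and 3.73% of all genes, with S1pr1, the receptor by which lymphocytes leave tissues, at 12.1 CPM in LSK and 3.36 CPM in LK.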

How the data were processed

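The 3 libraries were sequenced on a NovaSeq instrument from the 10x Genomics 3′ v2 kit, per the labels' protocols. The deposited files hold UMI counts per gene and cell barcode, made with Cell Ranger 4.0.0 on mm10, per the submitters' processing notes; neither the annotation release nor the cell calling is given there. Of 8968 barcodes, those with at least 200 genes and at most 10% mitochondrial UMIs were kept. Scrublet, run per library in scanpy 1.11.5, marked 3 LSK, 3 LK and 73 TBM cells, which were left out; its shares of 0.280% in LSK and 0.0866% in LK are low, so doublets may remain. That left 8745 cells, against 1070 LSK, 3441 LK and 3984 TBM cells stated in the labels. Cells were classed by at least 1 UMI of a marker gene, and sums over a class were divided by all its UMIs. CPM has exact Poisson intervals and shares have exact Clopper-Pearson intervals. Log2 ratios have exact intervals from the binomial split of their UMIs, and only these ratios and their intervals were tested on simulated data. A fold of 2 over genes with at least 20 UMIs on both sides together was counted, with counts under 3 set to 3 and no call in favour of a side so raised. Levels are not divided by transcript length because the kit counts 1 end per molecule. Gene positions are from GENCODE M21 (GRCm38). All 8 members are named; the genes most like each were the 5 with the highest r among genes with at least 200 UMIs. The members, lists and classes were chosen with earlier results of these data known. Alternatives were 2 UMIs of a marker, equal weight for each cell, size factors from the median gene, thinning to 2000 or 5000 UMIs, other filters and leaving out the top cell.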

Additional observations from a re-analysis of the deposited data

Results flagged for a closer look

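Gimap7 differed in direction between the libraries when cells with Procr only were set against cells with Flt3 only. The log2 difference was -1.15 in LSK (-2.58 to 0.08) and 1.17 in LK (-0.59 to 2.60). The LK value rests on 5 UMIs in Procr-only cells and 22 UMIs in Flt3-only cells, both intervals include 0, and the difference between the libraries was not tested, since each has 1 library.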

How the results depend on the processing

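No paired analysis was possible because each group has 1 library and the labels carry no replicate numbers; for the same reason no replicate could be left out. Equal weight for each cell moved the summed Gimap log2 difference of LSK over LK to 2.18, LSK over TBM to 0.054, LK over TBM to -2.13, Cd3e cells over B-marked cells to 1.47 and Klrd1-only over B-marked cells to 0.74. Size factors moved LSK over LK to 2.27, LSK over TBM to 0.19 and LK over TBM to -2.10. Requiring 2 UMIs of a marker moved Procr-only over Flt3-only LSK cells to 1.20 and Cd3e over B-marked cells to 1.79. Leaving out S100a8/S100a9-rich and globin-rich cells moved Cd3e over B-marked cells to 1.77 and Klrd1-only over B-marked cells to 0.95. Keeping Klrd1-only cells with Ncr1, Klrb1c or Klre1, an alternative chosen after seeing the data, as were the splits by Mki67 or Top2a, by Dntt and by Vpreb1 or Igll1 and the B-marked classes without rich cells, moved Klrd1-only over B-marked cells to 2.86. The other 27 values of these summed differences and gene percentages under alternatives stayed close to those reported. Directions turned for Gimap9, LSK over TBM, at -0.46 with size factors, and for Gimap1, Klrd1-only over B-marked cells, at -0.0091 without the cell with most UMIs on each side. Shares of cells fell outside their interval in 56 of 64 cases after thinning to 2000 UMIs, so they compare classes only at a fixed depth. With 1 library per group, differences between libraries and between animals or sorts cannot be told apart, and members under 20 UMIs are limited by depth.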
